A study of Mus musculus with 3 samples.

Results

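The peaks described here were ESRRA-bound regions of mouse duodenal villus cells that lay outside genes but near them. A peak was taken when its midpoint was in no annotated gene and was more than 1 kb and at most 20 kb from the nearest transcript start site. Of 1639 ESRRA peaks, 299 met this rule, or 18.2% (95% Wilson interval 16.4 to 20.2). The others were 489 promoter peaks within 1 kb of a start site, 571 gene-body peaks and 280 intergenic peaks farther than 20 kb from a start site. All coordinates are those of mouse genome build mm9, counted from 1.

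The chromatin came from adult villus cells of the duodenal epithelium, the absorptive surface of the first part of the small intestine, from wild-type C57BL/6 mice on regular chow. There were 2 libraries of ESRRA chromatin immunoprecipitation with sequencing (ChIP-seq) and 1 library of input chromatin. Peaks were called by the authors on the merged ChIP libraries, and the list held positions only, with no peak height, read count or value per library. Presence of a peak in each replicate could therefore not be compared, depth is unknown from the list, and the intervals below cover counting over peaks only.

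ESRRA, estrogen-related receptor alpha, is an orphan nuclear receptor that works with the coactivators PGC-1alpha and PGC-1beta and is best known for driving genes of mitochondrial respiration and fat metabolism. Receptors of this family bind DNA as a monomer or dimer at an extended half-site, in which the nuclear receptor sequence AGGTCA is preceded by further bases, most often as TCAAGGTCA. Such receptors act both at promoters and at distal enhancers. In enterocytes, distal elements often lie beside genes of nutrient uptake, lipid handling and the brush border.

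The sequences below illustrate the family's binding sequence and were chosen because they hold it. They are the 12 peaks in which TCAAGGTCA lay closest to the peak midpoint, and D4Wsu53e, which tied with the last of them at 24 bp, with the strand chosen so that the site reads from left to right. Capitals mark TCAAGGTCA, and the bases were read from the mm9 reference genome.
Pcbp1, chr6:86465856-86465892, plus strand: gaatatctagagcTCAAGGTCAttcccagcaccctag
Arf6, chr12:70468436-70468472, minus strand: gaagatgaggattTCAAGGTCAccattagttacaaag
Nyx, chrX:13038954-13038990, minus strand: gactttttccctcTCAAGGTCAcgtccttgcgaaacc
Ttyh3, chr5:141130537-141130573, plus strand: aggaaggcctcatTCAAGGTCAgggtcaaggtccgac
Adamtsl4, chr3:95507399-95507435, minus strand: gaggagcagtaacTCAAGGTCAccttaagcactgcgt
Atp1b1, chr1:166389597-166389633, plus strand: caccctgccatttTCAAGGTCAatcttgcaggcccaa
Tnip1, chr11:54786552-54786588, minus strand: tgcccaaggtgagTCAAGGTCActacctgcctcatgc
Zbtb7a, chr10:80592023-80592059, minus strand: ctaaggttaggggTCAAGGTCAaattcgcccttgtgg
Cep70, chr9:99142881-99142917, minus strand: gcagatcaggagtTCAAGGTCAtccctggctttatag
Rnase12, chr14:51683795-51683831, minus strand: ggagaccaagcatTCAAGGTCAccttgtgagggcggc
Edn2, chr4:119841016-119841052, minus strand: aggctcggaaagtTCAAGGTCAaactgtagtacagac
Gm4883, chr7:31491694-31491730, plus strand: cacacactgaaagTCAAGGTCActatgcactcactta
D4Wsu53e, chr4:134478456-134478492, plus strand: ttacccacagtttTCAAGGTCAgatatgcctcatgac

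Each name is that of the gene with the nearest start site. None of these windows except those of Arf6 and Cep70 had 18 or more of its 28 surrounding bases in common with the window of another peak. The site was 2 bp from the midpoint at Pcbp1, which encodes an RNA-binding protein, and the peak lay 10290 bp downstream of its start site. At Arf6, a small GTPase of membrane traffic, the site was 5 bp from the midpoint of a peak 4687 bp upstream. At Atp1b1, the beta subunit of the sodium pump of the basolateral membrane, it was 17 bp from the midpoint of a peak only 1145 bp upstream. The peak at Edn2, which encodes the peptide endothelin 2, was 7247 bp downstream of the start site and 1093 bp past the end of the gene.

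A second set shows peaks whose central half-site was not preceded by TC. These are the 5 nearest to a protein-coding start site among peaks with AAGGTCA within 50 bp of the midpoint and no TCAAGGTCA anywhere in the peak, and capitals mark AAGGTCA.
Gm16253, chr3:96379560-96379596, plus strand: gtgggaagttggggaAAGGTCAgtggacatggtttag
Agps, chr2:75668521-75668557, plus strand: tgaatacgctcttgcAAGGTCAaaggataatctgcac
Ces2a, chr8:107255929-107255965, minus strand: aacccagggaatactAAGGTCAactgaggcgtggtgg
Zfp747, chr7:134521878-134521914, minus strand: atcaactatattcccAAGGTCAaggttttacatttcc
D5Ertd579e, chr5:37089739-37089775, plus strand: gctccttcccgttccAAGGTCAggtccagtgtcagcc

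The bases before AAGGTCA were GA, GC, CT, CC and CC in these peaks. Ces2a, a carboxylesterase that hydrolyses esters and many drugs, had its peak 1955 bp upstream. Agps, a peroxisomal enzyme of ether lipid synthesis, had its peak 1695 bp upstream, with the half-site at the midpoint itself. The other peaks chosen in the same way were those of Chd9, Birc7, Gm7932 and Entpd6 and a second peak of Atp1b1, at 2685 bp.

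Over all 299 intergenic peaks near genes, 134 held AAGGTCA on either strand, or 44.8% (39.3 to 50.5). In the whole peak list the share was 44%. In windows of the same width 2 kb to each side of the 299 peaks, 76 of 559 held it, or 13.6% (odds ratio 5.16, p = 2.89e-23 by a two-sided Fisher's exact test). TCAAGGTCA was in 44 peaks, or 14.7% (11.1 to 19.2), against 14.3% of the whole list and 2.50% of the flanking windows. The reversed sequence ACTGGAACT, used as a negative control, was in 0.669% of the peaks and 0.894% of the windows. The family's binding sequence was more frequent in the peaks than beside them, and the control sequence was not.

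**Figure D1:**
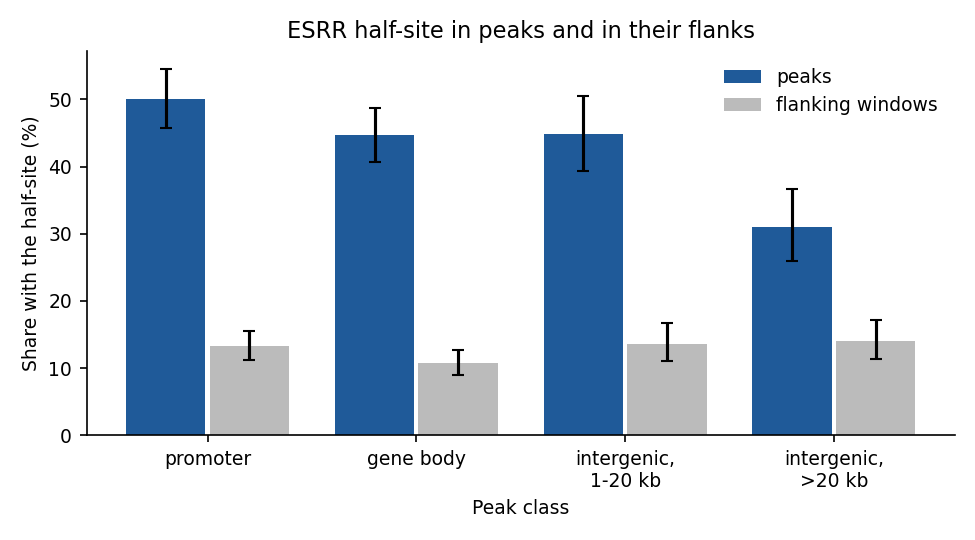
Share of peaks (blue) and of flanking windows 2 kb away (grey) with the ESRR half-site AAGGTCA on either strand, in percent, for the 4 peak classes; error bars are 95% Wilson intervals. Intergenic peaks at 1 to 20 kb stood at 44.8%, next to the gene-body peaks at 44.7%, while those farther than 20 kb stood at 31.1%.

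The share with AAGGTCA did not differ past the threshold from that of promoter peaks, 50.1% (odds ratio 0.809, adjusted p = 0.244 by Fisher's exact test with Benjamini-Hochberg adjustment over 3 comparisons). It was 44.7% in gene-body peaks (odds ratio 1.01, adjusted exact p = 1). It was higher than in the intergenic peaks beyond 20 kb, of which 31.1% held the half-site (odds ratio 1.80, adjusted exact p = 0.00248). Among peaks of single-copy sequence that last odds ratio turned to 0.829 (adjusted exact p = 1).

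The 299 peaks held 163 half-sites, and 49 of them, or 30.1%, lay within 50 bp of the midpoint. Even spacing over the peak would put 17.0% there (two-sided exact binomial test, p = 3.71e-05). Of the central half-sites, 23 of 49 were preceded by TC, or 46.9%, against 29 of 114 farther out, or 25.4%, and 14 of 77 in the flanking windows, or 18.2%. Half-sites were counted as independent, although some shared a peak. The Gm17247 peak described below alone gave 11 of the 163, of which 8 were preceded by TC. CC was the next most frequent pair before central half-sites, with 8 of 49, or 16.3%. It was no more frequent there than farther out, where it was before 20 of 114, or 17.5%. In the flanking windows it was before 5 of 77, or 6.49%. AA, AG, AT, TA and TT were before none of the central half-sites. They were also infrequent farther out, with at most 7 of 114 (AG), and AT was before none there.

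**Figure D2:**
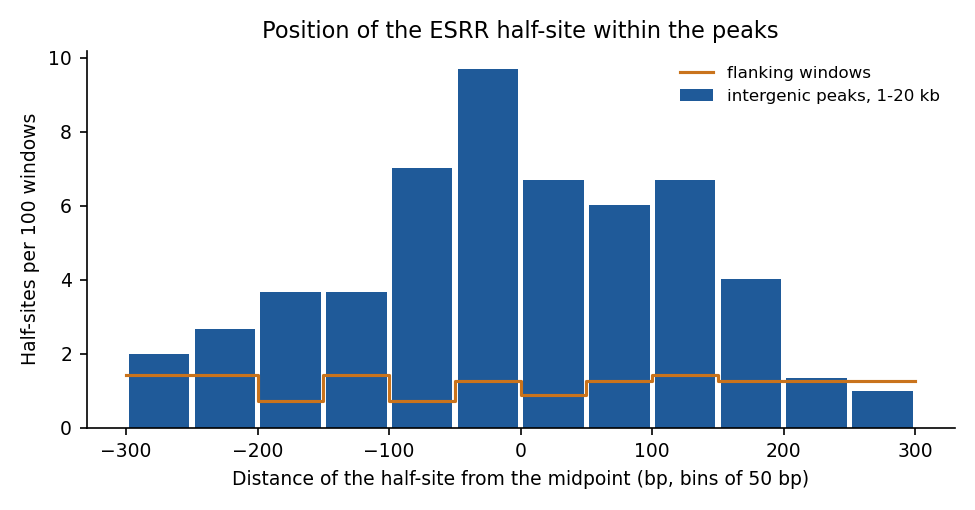
Half-sites per 100 windows in bins of 50 bp by distance from the midpoint, for the 299 intergenic peaks near genes (bars) and the 559 flanking windows (line). The bin just left of the midpoint held 9.70 half-sites per 100 peaks, and the outermost bins held 2.01 and 1.00, against 0.716 to 1.43 in the flanking windows.

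Most peaks with the half-site held a single copy. There was 1 half-site in 115 peaks, 2 in 17 peaks and 3 or more in 2 peaks. In the 17 peaks with 2 half-sites, both copies were on the same strand in 10 and on opposite strands in 7, with a median of 162 bases between them and never fewer than 39. Peaks with 2 half-sites included those at Ucp2, Cdx2, Faah, Slc25a3, Rdh7, Ces2a and Ttyh3.

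A peak at chr5:139450622-139451222, 10540 bp upstream of the predicted gene Gm17247, stood apart with 11 copies of AAGGTCA, all on the plus strand. It was singled out after its count was seen. Of these copies, 8 were TCAAGGTCA, and the spacing from one start to the next ranged from 15 to 105 bp. The sequence was single-copy in the reference genome. A stretch of 240 bases from its second base on, with AAGGTCA in capitals, shows 6 copies.
Gm17247, chr5:139450623-139450862, plus strand: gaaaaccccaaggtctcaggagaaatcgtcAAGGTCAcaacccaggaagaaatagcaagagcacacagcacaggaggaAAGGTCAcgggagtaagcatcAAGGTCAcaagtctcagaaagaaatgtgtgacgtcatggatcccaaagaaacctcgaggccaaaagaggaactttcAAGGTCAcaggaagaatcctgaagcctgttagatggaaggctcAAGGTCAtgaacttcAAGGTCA

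Half-site windows of different peaks were also compared with each other outside the 9 bases of the site. Of 130 peaks with a window compared, 31 had at least 18 of 28 surrounding bases identical to the window of another peak, and these linked peaks formed 8 groups. The largest group held 13 peaks on 10 chromosomes, 10 of them with TCAAGGTCA. These windows show members of that group, in which a stretch like gatcag came before the site and ggcta after it in several.
Slc28a1, chr7:88256033-88256069, plus strand: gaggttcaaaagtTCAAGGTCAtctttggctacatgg
Pacsin2, chr15:83298331-83298367, minus strand: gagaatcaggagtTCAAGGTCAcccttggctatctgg
Kcng3, chr17:84050072-84050108, plus strand: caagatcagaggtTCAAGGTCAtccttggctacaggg
Ucp2, chr7:107650755-107650791, plus strand: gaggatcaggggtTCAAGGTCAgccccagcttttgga
Gstp2, chr19:4046855-4046891, minus strand: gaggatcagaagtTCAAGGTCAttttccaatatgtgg

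Cep70 and Arf6, shown above, belonged to the same group, as did Pdgfc and Gm10655. All 13 peaks passed as single-copy sequence by exact words of 24 bases, with medians of 1 to 5 copies. That measure does not count copies differing by scattered bases. Of the other groups, 2 held 4 peaks each, all of multi-copy sequence.

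Of the other sequences searched on both strands, only CCACACCC, the CACCC box bound by KLF factors, was more frequent in the peaks than beside them after adjustment over 11 motifs. It was in 9.70% of the 299 peaks and 4.11% of the windows (odds ratio 2.50, adjusted p = 0.00555 by Fisher's exact test). Its share was 7.63% in the whole list, 9.41% in promoter peaks, 7.88% in gene-body peaks and 1.79% in far intergenic peaks. The windows were not matched for GC content, and this comparison was not rerun under other settings. The GATA sequence AGATAA was in 36.5% against 29.9% (adjusted exact p = 0.121), and the GC box GGGCGG in 14.4% against 9.48% (adjusted exact p = 0.111). The CDX sequence TTTATNG was in 26.8% of the peaks and 26.1% of the windows (adjusted exact p = 0.958). The HNF4 sequence CAAAGTCCA, a related nuclear receptor site, was in 2.68% against 1.43% (adjusted exact p = 0.453). The AP-1 sequence TGANTCA, the HNF1 sequence GTTAATNA and the ETS sequence CCGGAAG also did not pass (adjusted exact p = 0.550, 0.453 and 0.729).

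The peaks lay a median of 7803 bp from the nearest start site, with quartiles at 4077 and 12778 bp. Set against the amount of intergenic sequence, there were 0.676 peaks per Mb (exact Poisson interval 0.601 to 0.757) at 1 to 20 kb and 0.271 (0.240 to 0.305) farther out. The ratio was 2.49 (two-sided exact conditional binomial test, p = 1.73e-27). Among single-copy peaks the ratio was 4.71, counted over the same bases, repeated sequence included. It is therefore not the ratio within single-copy sequence. Within the range, density was 0.872 per Mb at 1 to 2 kb, 0.815 at 2 to 5 kb, 0.606 at 5 to 10 kb, 0.636 at 10 to 15 kb and 0.605 at 15 to 20 kb. The intervals of these bands overlapped one another, and each band was above the far intergenic level.

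**Figure D3:**
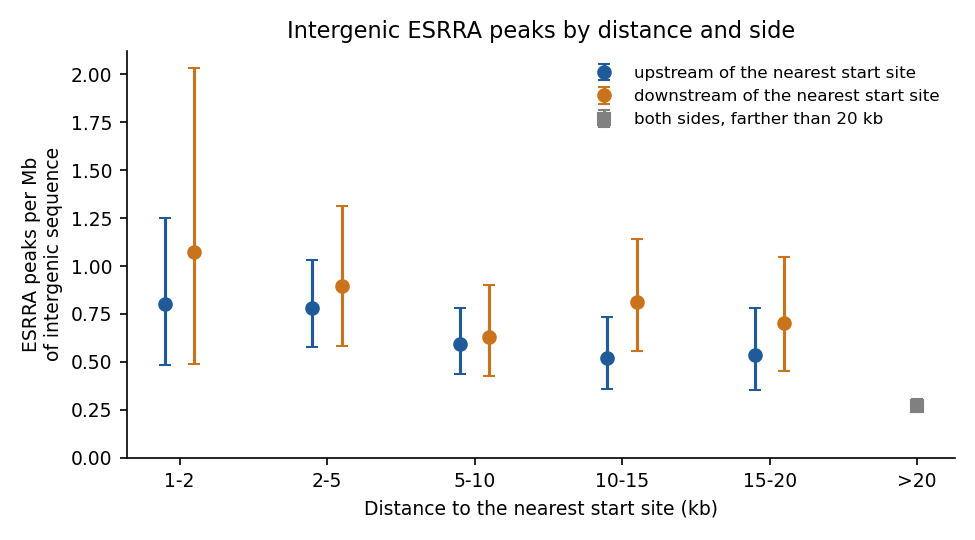
ESRRA peaks per Mb of intergenic sequence (vertical axis) by distance to the nearest start site in kb, upstream (blue) and downstream (orange), and beyond 20 kb (grey square); bars are exact Poisson 95% intervals. Every band up to 20 kb lay between 0.523 and 1.07 per Mb, above the 0.271 per Mb of the far intergenic sequence.

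Of the 299 peaks, 177 were upstream of their nearest start site and 122 downstream, past the end of the transcript. The upstream share of 59.2% (53.5 to 64.6) did not differ past the threshold from the 63.9% of intergenic bases in that range that lie upstream (two-sided exact binomial test, p = 0.104). With start sites of protein-coding genes only, the upstream share of 61.2% was below that of the bases (exact p = 0.000269). Upstream peaks were a median of 6410 bp away. Downstream peaks were a median of 9524 bp from the start site but only 2784 bp past the gene end, and 79 of the 122 were within 5 kb of that end.

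The nearest start site was that of a protein-coding gene for 230 peaks, or 76.9%, of a pseudogene for 25, of a small nuclear RNA for 11 and of a lincRNA for 9. There were 271 distinct nearest genes, of which 249 had a single such peak, 18 had 2, 2 had 3 and 2 had 4. Start sites within 20 kb on both sides were found for 101 peaks, so that the nearest gene is one of several candidates there. Assignment by distance does not show which gene a peak acts on. Peaks were found on all 21 chromosomes, from 7 on chromosomes 14 and 18 to 32 on chromosome 11 among the autosomes.

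The rule has limits at 1 kb and 20 kb. Just inside the inner limit were the peaks at Cep70 (1007 bp), Pfas (1012 bp) and Adamtsl5 (1053 bp), and just outside it were promoter peaks at Tlr3 (991 bp), Foxn2 (941 bp) and Fam193a (939 bp). Just inside the outer limit were those at Slc15a5 (19987 bp), 9230019H11Rik (19594 bp) and Abhd6 (19520 bp). Just outside it were those nearest to Gm11255 (20040 bp), Idh1 (20059 bp) and Slc25a25 (20098 bp).

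Of the genes with the nearest start site, those in 12 lists were counted by role. For orientation, 209 of 22225 protein-coding gene symbols, or 0.94%, were nearest to at least 1 of the 299 peaks, and 464, or 2.09%, had a promoter peak. A gene counted as having a promoter peak when a peak lay within 1 kb of any of its annotated start sites. Of the 209, 30 also had a promoter peak, or 14.4%. No gene was reached among 83 subunits of oxidative phosphorylation, of which 43 had a promoter peak. The same count of 0 was found for 76 mitochondrial ribosomal proteins (5 with a promoter peak), 23 genes of the tricarboxylic acid cycle and pyruvate dehydrogenase (7) and 23 of fatty acid oxidation (2). It was also 0 for 83 cytosolic ribosomal proteins and for 29 markers of goblet, Paneth, enteroendocrine, stem, tuft and immune cells, with a promoter peak at 1 gene of each. The lists were chosen with results of these data known, and these counts are descriptions without a test. At the share over all genes, a count of 0 is unremarkable for lists of these sizes.

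Among 35 genes of dietary lipid and vitamin A absorption, 6 were nearest to such a peak, and 7 of the 35 had a promoter peak. Of the 6, 4 also had a promoter peak, a number too small to set against the 14.4% of all such genes. Apoa1, the main apolipoprotein of HDL, had a peak at each end. Its downstream peak, chr9:46038260-46038860, had its midpoint 11 bp beyond the annotated end and so overlapped the gene. Its upstream peak, chr9:46032081-46032681, was 4282 bp from the start site. That peak also overlapped an annotated gene, with 197 bases in exons, and the Sik3 start site on its other side was 4727 bp away. Dgat1, which makes triglyceride from diacylglycerol, had a peak 785 bp past its end (chr15:76331360-76331960). Apob, the structural protein of chylomicrons, had one 1512 bp past its end (chr12:8024853-8025453). Fabp1, a fatty acid-binding protein, had one 1299 bp past its end (chr6:71156016-71156616). None of these 5 peaks held AAGGTCA, and each of the 4 genes had a promoter peak as well.

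The remaining genes of that list had an upstream peak and no promoter peak. At Rdh7, a retinol dehydrogenase, the peak chr10:127330130-127330730 was 4335 bp upstream and held 2 half-sites 39 bases apart on the same strand. At Acsl5, which activates long-chain fatty acids, the peak chr19:55322151-55322751 was 5408 bp upstream and held none.

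Among 32 genes of solute transport, 6 were nearest to such a peak, all on the upstream side. Of all 299 peaks 59.2% were upstream, and the side of so few peaks was not tested. A promoter peak was at 6 of the 32 genes. Of the 6 genes nearest to an intergenic peak, the 5 described here had 6 such peaks. Atp1b1 had peaks at chr1:166389331-166389931 and chr1:166390871-166391471, 1145 and 2685 bp upstream, with 1 and 2 half-sites. The gene had no promoter peak.

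The other 4 genes encode carriers of the apical or basolateral membrane. Slc28a1, a nucleoside transporter, had a peak 3603 bp upstream (chr7:88255782-88256382) with TCAAGGTCA 32 bp from its midpoint. Slc6a19, the main carrier of neutral amino acids, had a peak 6410 bp upstream (chr13:73848423-73849023) with 1 half-site. Slc2a2, the glucose and fructose carrier GLUT2 of the basolateral membrane, had a peak 2065 bp upstream (chr3:28594460-28595060) without a half-site and a promoter peak with 1. Slc9a3, the sodium/proton exchanger NHE3, had a peak 19060 bp upstream (chr13:74239603-74240203), likewise without a half-site beside a promoter peak with 1.

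Of 28 brush-border genes, 8 had a promoter peak. An intergenic peak was nearest to 2, both also with a promoter peak, a number too small to set against the 14.4% of all such genes. Alpi, intestinal alkaline phosphatase, had its intergenic peak 650 bp past the gene end (chr1:88993629-88994229). Vil1, the actin-bundling protein villin, had it 4678 bp upstream (chr1:74450972-74451572). The promoter peak of Vil1 was 14285 bp from this peak and 70 bp from another annotated start site, inside the gene. Neither intergenic peak held AAGGTCA.

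Of 44 mitochondrial carrier genes of the Slc25 list, 3 had a promoter peak and 2 were reached. Ucp2, described below, was not in this list. Slc25a3, which brings phosphate into mitochondria for ATP synthesis, had a promoter peak and a peak 3358 bp upstream (chr10:90589862-90590462) with 2 half-sites on opposite strands. Slc25a10, the dicarboxylate carrier, had a peak 9028 bp downstream of its start site (chr11:120367767-120368367) without a half-site.

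Of 216 genes of drug and toxin metabolism, 5 had a promoter peak and 5 were reached, namely Ces2a, Gstp2, Cyp3a13, Cyp3a59 and Cyp3a25. The peak at Gstp2, a glutathione transferase, was 4605 bp upstream (chr19:4046526-4047126) with TCAAGGTCA 48 bp from the midpoint, and that at Ces2a (chr8:107255648-107256248) held 2 half-sites. The peaks at the cytochromes P450 Cyp3a13 (6930 bp upstream, chr5:138369477-138370077), Cyp3a59 (9801 bp upstream, chr5:146880733-146881333) and Cyp3a25 (16125 bp downstream, chr5:146786794-146787394) held none. Of 83 transcription factors of the intestinal epithelium and nuclear receptor partners, 9 had a promoter peak and 1 was reached. This was Cdx2, a homeobox factor of intestinal identity. Its peak, chr5:148105721-148106321, was 12825 bp downstream of the start site and held 2 half-sites.

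**Figure D4:**
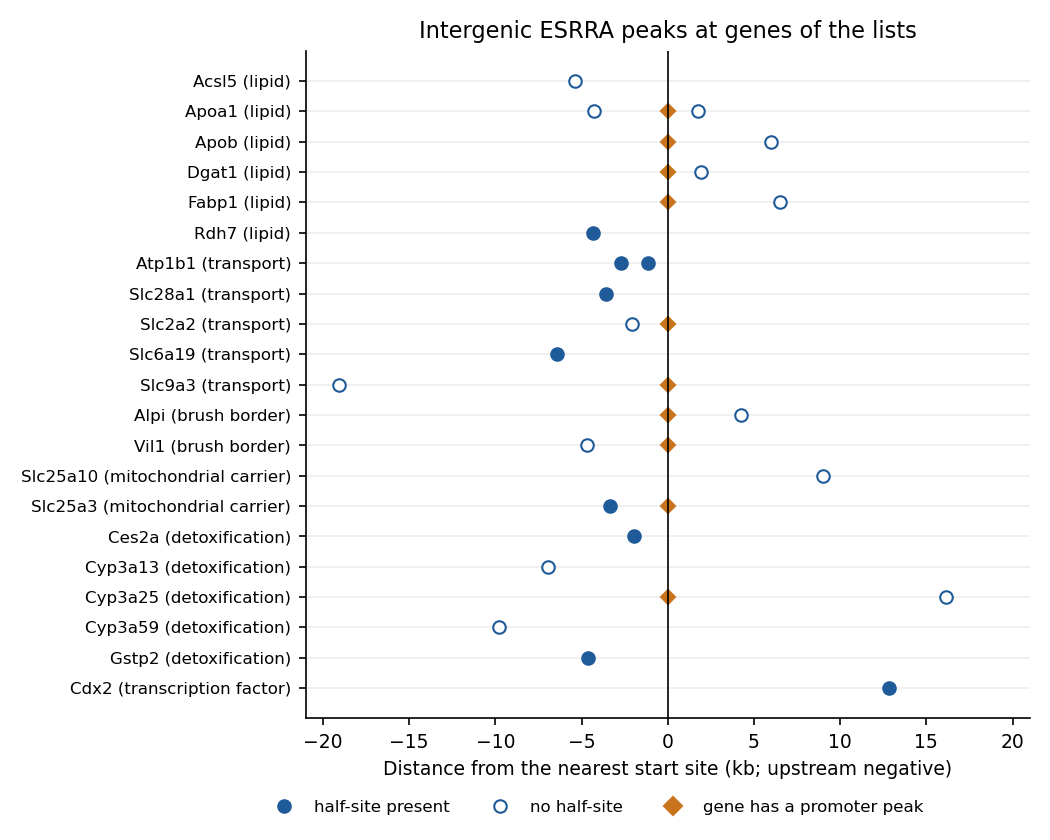
Position of each intergenic ESRRA peak relative to the nearest start site of its gene in kb (horizontal axis, upstream negative) for the genes of the lists described in the text (rows). Filled circles hold AAGGTCA and open circles do not. A diamond at 0 marks a gene with a promoter peak at any of its start sites, and its exact offset is not drawn. The 6 peaks of the 5 transport genes drawn all lie left of 0, the side of 59.2% of all 299 peaks.

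Further metabolic genes with such a peak were named after their values were seen. Ucp2, an uncoupling protein homologue of the inner mitochondrial membrane, had a peak 509 bp past its end (chr7:107650738-107651338) with a half-site 1 bp from the midpoint. Pck1, the cytosolic enzyme that commits to gluconeogenesis, had a peak 568 bp past its end (chr2:172985042-172985642), and both this peak and its promoter peak held a half-site. G6pc, glucose-6-phosphatase, had a peak 4782 bp upstream (chr11:101223793-101224393) with 1 half-site. Adh1, alcohol dehydrogenase, had TCAAGGTCA in a peak 19374 bp upstream (chr3:137904281-137904881). Ldha, lactate dehydrogenase, had a peak without a half-site 1793 bp upstream (chr7:54094752-54095352).

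For 38 of the 299 peaks, or 12.7% (9.40 to 17.0), the nearest gene also had a promoter peak, and 31 genes were involved. The share in the whole list was 12.3%. It was 17.7% for gene-body peaks (odds ratio 0.678, adjusted p = 0.0641 by Fisher's exact test) and 5.36% for far intergenic peaks (odds ratio 2.57, adjusted p = 0.00463). The last difference was not past the threshold among single-copy peaks (odds ratio 1.63, adjusted exact p = 0.302). The promoter peak was a median of 6222 bp away, and in 17 of the 38 pairs the midpoints were at most 5 kb apart.

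The 10 closest pairs were led by Slc6a20b, an amino acid transporter gene, whose intergenic peak (chr9:123542627-123543227) was 626 bp from the promoter peak, little more than the width of a peak. Apoa1 followed with 1318 bp, Midn with 1480 bp and Gm16253 with 1623 and 2943 bp. At D4Wsu53e the distance was 1800 bp, at Fos, an AP-1 subunit, 1877 bp, and at Atf4, a stress-response factor, 1965 bp. Slc2a2 and Lgals4, a galectin of enterocyte lipid rafts, completed them with 2487 and 2513 bp. The peak at Midn was also 4848 bp from the start site of Atp5d, an ATP synthase subunit, on its other side. Fos had 3 intergenic peaks, 1 upstream and 2 downstream, besides its promoter peak.

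In these 38 pairs the half-site was in both peaks in 4, in the intergenic peak only in 7, in the promoter peak only in 6 and in neither in 21. Pck1, Slc16a5 and Gm16253 were the genes with AAGGTCA in both. Slc25a3 and Lgals4 had it in the intergenic peak only, and Slc2a2, Midn and Slc9a3 in the promoter peak only. Apoa1, Apob, Dgat1, Fabp1, Alpi and Vil1 were among those with neither.

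Peaks whose nearest gene had a promoter peak held AAGGTCA less often than the other intergenic peaks near genes, with 11 of 38, or 28.9%, against 47.1% (odds ratio 0.457, adjusted p = 0.0499 by Fisher's exact test, adjusted over 4 comparisons within the class). Peaks with any other ESRRA peak within 30 kb held it in 38 of 115, or 33.0%, against 52.2% of isolated peaks (odds ratio 0.452, adjusted exact p = 0.00512). Upstream peaks held it in 90 of 177, or 50.8%, and downstream peaks in 44 of 122, or 36.1% (odds ratio 1.83, adjusted exact p = 0.0261). Peaks up to 10 kb away and peaks farther away had 45.6% and 43.6% (adjusted exact p = 0.812). These tests counted peaks as independent, although the 38 peaks came from 31 genes and neighbouring peaks could both be counted. The comparisons within the class were not rerun with 1 peak per run.

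With peaks only up to 10 kb, the odds ratios for a promoter peak and for a neighbour were 0.616 and 0.539 and did not pass (adjusted exact p = 0.305 and 0.0780). With TCAAGGTCA in place of AAGGTCA, the comparisons by side, promoter peak and neighbour kept their direction and did not pass (adjusted exact p = 0.118, 0.118 and 0.113).

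These divisions overlapped. Of the downstream peaks, 22 of 122, were at a gene with a promoter peak, against 16 of 177 upstream, or 9.04%. Without the peaks whose gene had a promoter peak, 51.6% of the upstream peaks held AAGGTCA. The odds ratio against downstream peaks was then 1.60 (unadjusted Fisher's exact p = 0.0752). The 22 downstream peaks at genes with a promoter peak held the half-site in 4, or 18.2%. All 22 were within 5 kb of the gene end, 10 of them within 1 kb, and none of the 43 downstream peaks farther past the end was at such a gene.

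**Figure D5:**
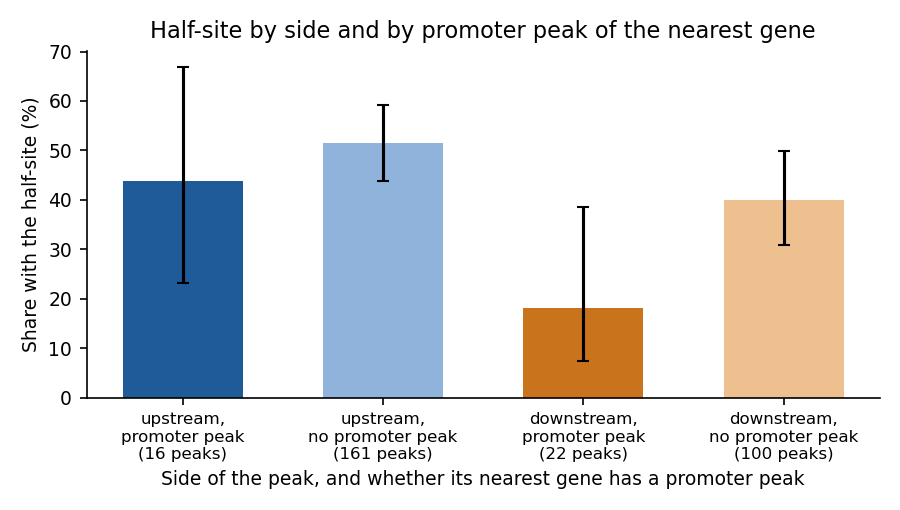
Share of the 299 peaks with the ESRR half-site AAGGTCA, in percent, by side of the nearest start site and by whether the nearest gene had a promoter peak; bars are 95% Wilson intervals. Shares were 43.8% and 51.6% upstream, with and without a promoter peak, and 18.2% and 40% downstream.

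Another ESRRA peak lay within 30 kb of 115 of the 299 peaks, or 38.5%, against 36.4% in the whole list. The nearest such neighbour was another intergenic peak near a gene for 53, a promoter peak for 32, a gene-body peak for 25 and a far intergenic peak for 5. Joined where they were at most 30 kb apart, the 299 peaks formed 267 runs, the largest with 5 peaks. Enpp7, an alkaline sphingomyelinase of the brush border, had 3 peaks, 1 at 5535 bp upstream (chr11:118843582-118844182) and 2 downstream (chr11:118859012-118859612 and chr11:118860972-118861572), all without AAGGTCA. The lincRNA gene Gm10151 had 4 downstream peaks between chr4:132653420 and chr4:132658202, of which 3 were of multi-copy sequence. The gene 9230019H11Rik had 4 upstream peaks between chr10:7231296 and chr10:7246596, all of multi-copy sequence.

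Reads from sequence present many times in the genome cannot be placed with certainty, so copy number was counted for each peak. In 61 of the 299, or 20.4% (16.2 to 25.3), the 24-base words had a median above 10 copies, against 19.8% of the whole list. This share was above that of promoter peaks, 4.09% (odds ratio 6.01, adjusted p = 9.01e-13 by Fisher's exact test), and of gene-body peaks, 14.2% (odds ratio 1.55, adjusted p = 0.0205). The odds ratio against promoter peaks was 3.56 for peaks up to 10 kb, 3.59 with a limit of 2 copies and 193 with a limit of 100 copies (0.5 added to each count, since no promoter peak was above that limit). The share was below that of far intergenic peaks, 57.9% (odds ratio 0.187, adjusted exact p = 2.68e-20). The difference from gene-body peaks did not pass with protein-coding annotation only (odds ratio 1.34, adjusted exact p = 0.173) and turned in direction for peaks up to 10 kb (odds ratio 0.919).

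The multi-copy peaks differed from the rest in several counts. Of the 61 multi-copy peaks, 14 held AAGGTCA, and of the 238 single-copy peaks 120 did, or 50.4%. All 44 peaks with TCAAGGTCA were single-copy in the sense of a median of at most 10 copies, which made 18.5% of that kind. Of the multi-copy peaks, 1 had a promoter peak at its nearest gene, against 37 of the single-copy peaks. Their median distances from the start site were 11210 and 6552 bp. Of the 8 peaks on chromosome X, 6 were multi-copy.

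GC content had a median of 47.3% in the 299 peaks, with quartiles at 42.8 and 51.2%. It was 56.2% in promoter peaks, with a difference in means of -8.39 percentage points, and 41.5% in far intergenic peaks, with a difference of 4.31 (adjusted p = 3.0e-05 for both, from the smallest p that permutation tests with 100000 resamples can give). Gene-body peaks had 47.9%, and the difference in means of -0.317 percentage points did not pass (adjusted permutation p = 0.507).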

How the data were processed

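The authors aligned paired-end reads to mm9 with bowtie2 (version 2.2.6 in the submitters' processing notes), merged the 2 ESRRA ChIP libraries and called peaks against 1 input library with MACS2 at a p-value of 1e-05. The deposited list gave each peak's start and end, with base positions and no other score, signal or count, and 3 columns in all. Every peak was 601 bp wide; how this width was set is not given in the sources used here. Since peaks were pooled, replicates entered no comparison.

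Peaks were classed by midpoint against GENCODE M1 (37273 genes) on the NCBI build 37 genome, which is mm9. Motifs were matched exactly on both strands, and flanks were windows 2 kb away that touched no peak, gap or chromosome end. A peak was multi-copy when its 24-base words had a median above 10 copies in the genome. The others were called single-copy, a name that so includes sequence with a median of up to 10 copies. Fisher's exact, exact binomial and permutation tests were two-sided, with Benjamini-Hochberg adjustment within families. The exact Poisson method gave intervals only. Tests over peaks take peaks as independent, although neighbours can share a source. Functions were tested on simulated data. Python 3.11.15, scipy 1.17.1 and pandas 2.3.3 were used.

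The members, 11 motifs and 12 gene lists were chosen with earlier results of these data known. The peaks named were those with TCAAGGTCA closest to the midpoint (12), those with a central AAGGTCA and no TCAAGGTCA nearest a protein-coding start site (10, of which 5 are shown), those at genes of the lists, at genes with 3 or more peaks, nearest to a promoter peak of their gene (10) and at the distance limits. Some genes chosen in this way are not reported here. The alternatives were other distance limits, protein-coding annotation only, joined peaks, 1 peak per run, single-copy peaks, TCAAGGTCA, and other flank, copy, promoter and central settings.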

Additional observations from a re-analysis of the deposited data

How the results depend on the processing

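Of 111 recomputed values for 20 results, 89 were unchanged. For the number of peaks, which has no direction or test, this meant a count of similar size. For the other results it meant the same direction and the same side of the threshold. The enrichment of AAGGTCA over flanks, the central position of half-sites, the density ratio, and the differences in multi-copy share from promoter and far peaks kept both under every alternative run. Sizes still moved. The density ratio was 4.71 with single-copy peaks over all bases, repeated sequence included. Among single-copy peaks the GC difference from far peaks was 2.60 percentage points. The multi-copy odds ratio against promoter peaks ranged from 3.56 to 193. With a 30 kb limit the odds ratio for a promoter peak at the nearest gene was 3.89 against far peaks. With a 10 kb outer limit the number of peaks was 182, the odds ratios within the class fell short for promoter peaks at the nearest gene (0.616) and for neighbours (0.539), and reversed values were an odds ratio of 0.919 for multi-copy sequence and a GC difference of 0.175 percentage points, both against gene-body peaks. With a 30 kb limit AAGGTCA against gene-body peaks reversed (0.945), and the nearest gene with a promoter peak passed against gene-body peaks (0.673). With protein-coding annotation only, the upstream share passed (61.2%), AAGGTCA against gene-body peaks reversed (0.981) and multi-copy share against gene-body peaks fell short (1.34). Among single-copy peaks AAGGTCA against far peaks (0.829) and by distance within the class (0.882) and GC against gene-body peaks (0.485) reversed, and the nearest gene with a promoter peak fell short against far peaks (1.63). With 1 peak per run the latter passed against gene-body peaks (0.611). With TCAAGGTCA the comparison with gene-body peaks reversed (0.947), and side (2.02), promoter peak (0.290) and neighbours (0.420) fell short. A copy limit of 2 gave 1.335 against gene-body peaks, which fell short. Added after the data were seen, the odds ratio by side was 1.60 without peaks whose gene had a promoter peak and 1.85 without peaks that had a neighbour, both short of the threshold (unadjusted p). The cause of these changes was not tested.

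No paired analysis was possible because the list was called on merged libraries and carries no value per replicate. For the same reason, leaving out each replicate and a stricter peak threshold were not run. Depth and peak strength cannot be read from the list. Distance does not tell which gene a peak acts on, and copy number by exact words of 24 bases misses diverged copies of repeated sequence.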
